A study of Mus musculus with 4 samples.

Results

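The 34 genes described here encode the folding machinery of the endoplasmic reticulum (ER) and the sensors of its stress response. They were taken by symbol from the platform annotation. All 34 were measured, among 19938 named genes, and where a gene had several features the brightest on average was used. MC3T3-E1, an established mouse line of calvarial pre-osteoblasts (C57BL/6 origin), was cultured in proliferation medium and left untreated or given citalopram, a selective serotonin reuptake inhibitor (SSRI), at 0.0001 mol per litre (100 µM). RNA was taken on day 3 or day 7, which gives 4 groups with 1 Affymetrix array each: control at day 3, citalopram at day 3, control at day 7 and citalopram at day 7. All 4 groups share the line and medium with 1% serum, and the plates held 3 untreated and 3 treated wells. The sources used here do not say whether wells were pooled. The series title asks how citalopram bears on osteogenesis.

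Proteins bound for the membrane or for secretion enter the ER through the translocon, are folded by chaperones and disulfide isomerases, and leave in COPII-coated vesicles, while those that fail are pulled back and degraded. When unfolded protein builds up, 3 sensors in the ER membrane respond: ATF6 is cut to release a transcription factor, IRE1 (gene Ern1) splices the messenger RNA of XBP1, and PERK (gene Eif2ak3) slows translation and favours ATF4. ATF6 and XBP1 switch on chaperone genes. Osteoblasts secrete large amounts of collagen and depend on this machinery.

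Expression values are on a log2 scale, so a difference of 1 is a 2-fold change. With 1 array per group, a difference has no error estimate, and precision is limited by the number of arrays. The test used here is limma across all genes with additive terms for treatment and day. It tests the effect averaged over both pairs of arrays. Its error is the gene's disagreement between the pairs, drawn by eBayes towards a variance shared by all genes. Genes were counted above a floor, the 40th percentile of genes on an array (5.95 to 6.01), and all 34 passed it on at least 1 array. Derl3, at 5.99 to 6.12, lay near the floor on each array. Of 10 osteoblast markers listed 7 were measured and 6 reached the floor. Sparc was at 13.8 to 14.1 and Col1a1 at 11.9 to 12.6, but Ibsp was below the floor and Alpl close to it (5.93 to 6.09). The endothelial markers Pecam1 and Cdh5, the adipocyte marker Adipoq and the leukocyte marker Ptprc lay below the floor on all 4 arrays. Of the 6 endothelial markers 1 reached it (Vwf, 6.27 to 6.41), and of the 5 adipocyte markers 0 did. Of the 5 muscle markers 3 reached it, with Acta1 at 8.53 to 8.96 (citalopram differences -0.43 and -0.20) and Des at 7.48 to 7.69. Of the 5 epithelial markers 2 did, Krt8 at 6.78 to 6.95 and Krt18 at 6.13 to 6.21. Some markers differed with citalopram or between the days. Of the 7 macrophage markers 3 reached the floor. Lyz2 was at 8.60 to 9.50, higher with citalopram by 0.57 at day 3 and 0.47 at day 7. Cd68 (-0.01 and 0.15) and Cd14 (-0.04 and 0.15) were slightly lower with citalopram at day 3 and higher at day 7. Csf1r and Adgre1 lay below the floor. The log2 summed level of the 7 was 9.80 to 9.99 in control and 10.04 to 10.29 with citalopram. Of the 6 chondrocyte markers 4 reached the floor, with Sox9 at 10.50 to 11.01 (citalopram differences 0.41 and 0.28) and Col2a1 at 9.37 to 10.6 (0.51 and -0.22). Col9a1 (-0.15 and -0.06) and Col11a2 (-0.13 and -0.12) were lower with citalopram on both days, and Acan lay below the floor. The summed level of the 6 was 11.26 to 11.66 in control and 11.66 to 11.69 with citalopram. In all 6 osteoblast markers above the floor the citalopram difference at day 7 was below that at day 3, as for Sp7 (0.46 and 0.08), Dlx5 (0.42 and 0.23) and Col1a1 (0.25 and 0.04). The part of these markers in the results below was not tested. RNA of a whole culture cannot separate fewer cells of a type from less RNA per cell.

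Promoters of 11 of these genes held a sequence by which the response is known to act, and the matches are shown first. Another 17 had a promoter window without one. The ER stress element (ERSE) is bound by ATF6 and XBP1 with the factor NF-Y. It was searched as CCAAT and CCACG with any 9 bases between them, on both strands of RefSeq promoter windows of GRCm38.p6, from 250 bases before to 50 after a transcription start. Windows were found for 28 of the 34 genes. A match was present in 9 of the 28 (32.1%), against 37 of all 27025 genes with a window (0.137%). The 37 include these 9. The genes were chosen as members of this response, so a higher share than in all genes was built into the choice. It is no result of these data. The shorter ERSE-II, searched as ATTGG and CCACG with any 1 base between them, was found for Dnajb11 and Herpud1, and in 12 of all genes (0.0444%). The matches follow in the gene's direction with 8 bases on either side, the fixed letters of the element in capitals.
Creld2: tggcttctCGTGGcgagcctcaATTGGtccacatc
Pdia6: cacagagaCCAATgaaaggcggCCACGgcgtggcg
Calr: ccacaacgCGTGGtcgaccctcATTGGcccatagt
Dnajc3: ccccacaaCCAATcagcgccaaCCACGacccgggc
Canx: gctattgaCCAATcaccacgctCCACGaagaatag
Syvn1: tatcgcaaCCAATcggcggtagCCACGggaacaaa
Derl3: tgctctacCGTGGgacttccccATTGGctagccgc
Hspa5: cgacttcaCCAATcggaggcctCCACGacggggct
Dnajb11, ERSE-II: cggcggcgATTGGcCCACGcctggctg
Herpud1, ERSE-II: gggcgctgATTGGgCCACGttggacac

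Hsp90b1 had 2 matches, on opposite strands. In Creld2, Calr and Derl3 the element lay on the strand opposite to the gene, which is why its letters read in reverse complement. Hspa5, the gene of BiP, had its match from -65 to -47 relative to the start. When 1 of the 10 fixed letters was allowed to differ, 15 of the 28 genes had a match, Pdia4 and Pdia3 among them, against 1.72% of all genes. The cyclic AMP response element TGACGTCA and the amino acid response element TGATGCAAT, a target of ATF4, were found in none of the 28 windows, and in 2.03% and 0.222% of all genes. TGACGTGG, a core of the XBP1-bound element, was found only in Sec24d among the 28, and in 0.714% of all genes.

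**Figure D1:**
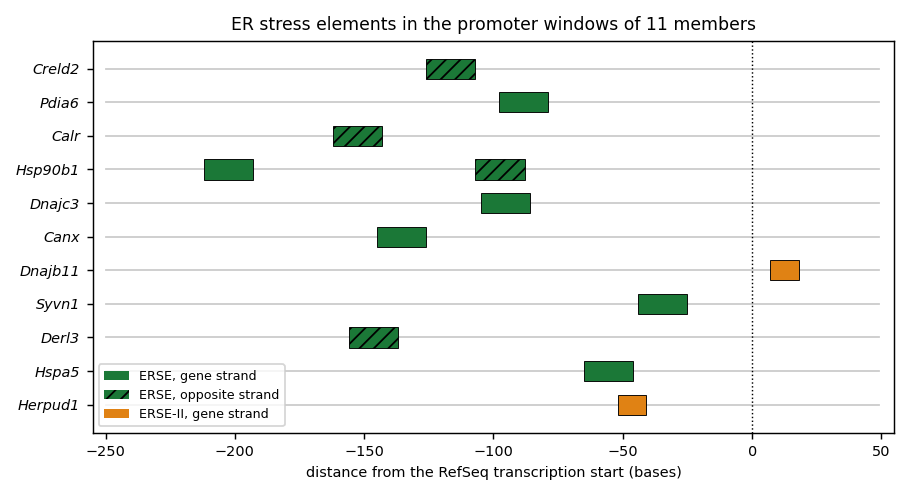
Position of each ERSE and ERSE-II match (boxes) in the promoter window of 11 genes, in bases from the RefSeq transcription start (dotted line), with genes ordered by their citalopram change at day 7, the lowest on top. Hatched boxes lie on the strand opposite to the gene; the Dnajb11 match is the only one after the start.

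With citalopram, most of the 34 genes had slightly lower values at day 7, whereas at day 3 their count was nearer to that of other bright genes. At day 3, 25 of 34 were higher and 9 lower, with a median log2 difference of 0.08. Of all 12198 genes above the floor 57.7% were higher and 42.3% lower, with a median of 0.03. Of those with a mean of at least 9 on the log2 scale 63.4% were higher, with a median of 0.05. At day 7, 26 of 34 were lower and 8 higher, with a median of -0.12, whereas 48.7% of 12176 genes were lower and 51.3% higher, with a median of 0.01; among genes with a mean of at least 9, 50% were lower. Differences of single genes were small: 2 were at least 1.2-fold higher at day 3 (8.94% of all genes) and 6 at least 1.2-fold lower at day 7 (9.07% of all genes), so the first share lies below the background and the second above it. At day 3 none was 1.2-fold lower (4.96% of all genes), and at day 7 none was 1.2-fold higher (9.86%). No gene of the 34 passed 1.5-fold at either day, which 0.5% of all genes did upward and 0.303% downward at day 3, and 0.558% upward and 0.944% downward at day 7. limma called 0 of 34 for citalopram over both days, and 0 of 12415 genes in all (0%). At an unadjusted p under 0.05 it listed 2 of the 34, Sdf2l1 and Creld2, both lower, against 9.01% of all genes.

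**Figure D2:**
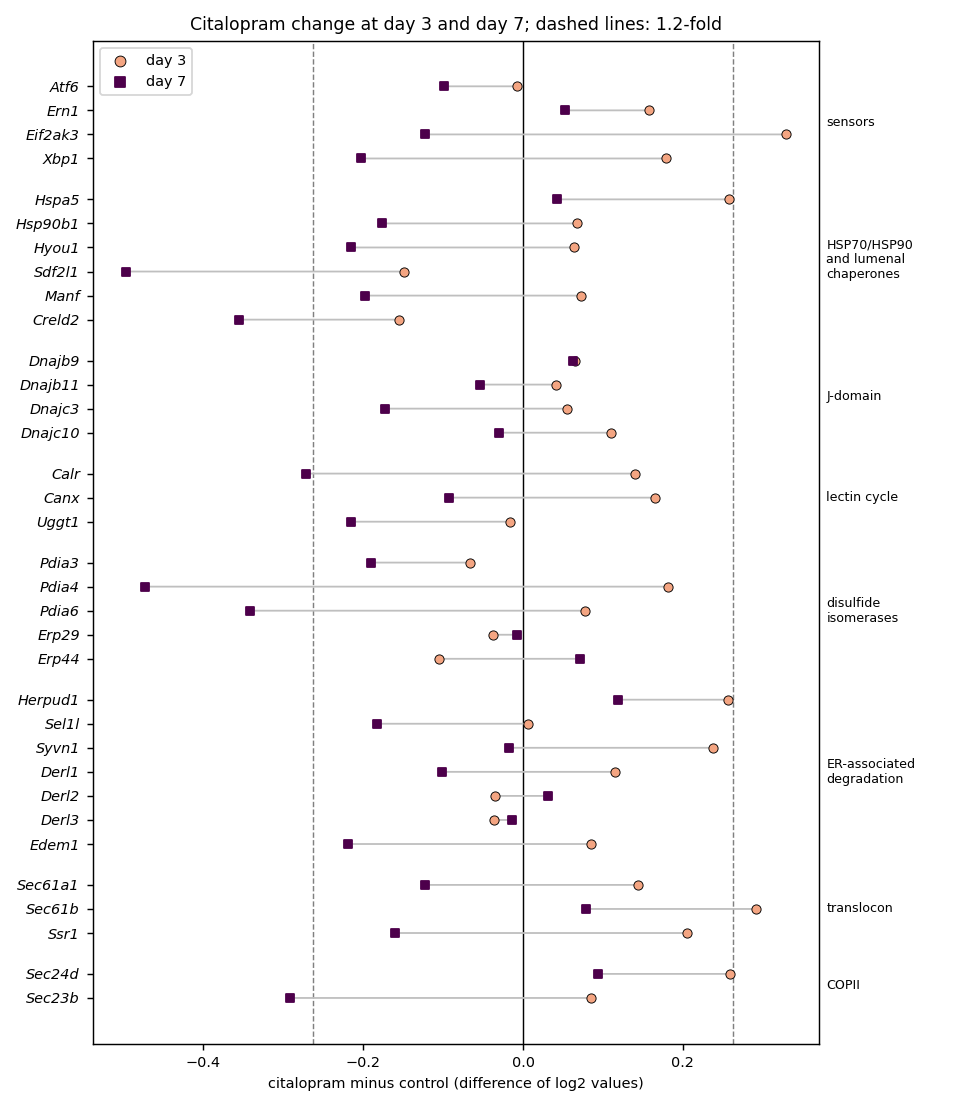
Citalopram minus control as a difference of log2 values for each gene at day 3 (circles) and day 7 (squares), grouped by role, 1 array per group and no error bars. Dashed lines mark 1.2-fold; Eif2ak3 and Sec61b lie beyond the right line at day 3, and Sdf2l1, Pdia4, Creld2, Pdia6, Sec23b and Calr beyond the left line at day 7.

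Of the 34 genes, 19 lay above control at day 3 and below it at day 7, as did 27% of all genes. A further 7 were lower at both days (22.2% of all genes), 6 higher at both (30.7%) and 2 lower then higher (20%). The change at day 7 was below that at day 3 in 30 of 34, against 54.8% of all genes and 60.1% of those with a mean of at least 9. It was below by at least 1.2-fold in 12 of 34 (15.7% of all genes) and by 1.5-fold in Pdia4 (1.83%). Put by array, 19 genes had their highest value in citalopram at day 3 (31% of all genes) and 20 their lowest in citalopram at day 7 (32.4%). Both held for 12 genes, against 14.5% of all genes. The highest value lay in control at day 7 for 8 genes (18% of all genes), in control at day 3 for 6 (22.6%) and in citalopram at day 7 for Herpud1 alone (28.5%). Without replicates, the difference between the days was not tested.

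Among the sensors, Eif2ak3, the PERK kinase, showed the largest difference at day 3. It read 9.45 (day 3) and 9.61 (day 7) on the control arrays, and 9.77 and 9.49 on the citalopram arrays. The citalopram array was thus 1.26-fold higher at day 3 (0.33) and slightly lower at day 7 (-0.12). Ern1, the IRE1 nuclease, was higher by 0.16 and 0.05, and Atf6 was at -0.01 and -0.10. Xbp1, the factor activated by IRE1, read 11.30 (day 3) and 11.09 (day 7) on the control arrays, and 11.48 and 10.89 on the citalopram arrays. Its values at day 7 lay below both values of day 3, and the citalopram arrays held the extremes. The array summarises all Xbp1 transcripts, so splicing by IRE1 is not measured.

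The lowest day 7 difference of the set was in the BiP system. Sdf2l1, a lumenal protein that works with the J-domain protein of Dnajb11, read 10.35 (day 3) and 10.23 (day 7) on the control arrays, and 10.20 and 9.73 on the citalopram arrays. It was 1.41-fold lower with citalopram at day 7 (-0.50), and -0.15 at day 3, so the citalopram value was below its control on both days (limma, adjusted p = 0.475). Creld2, an ER stress-inducible lumenal protein, read 10.71 (day 3) and 10.66 (day 7) on the control arrays, and 10.55 and 10.30 on the citalopram arrays. That is a difference of -0.16 at day 3 and -0.36 (1.28-fold lower) at day 7, again the lower value with citalopram on each day (limma, adjusted p = 0.542). Its promoter window, chr15:88819396-88819695 on the plus strand, is shown because Creld2 had the largest day 7 change among genes with a full ERSE, here in capitals.
Creld2 promoter: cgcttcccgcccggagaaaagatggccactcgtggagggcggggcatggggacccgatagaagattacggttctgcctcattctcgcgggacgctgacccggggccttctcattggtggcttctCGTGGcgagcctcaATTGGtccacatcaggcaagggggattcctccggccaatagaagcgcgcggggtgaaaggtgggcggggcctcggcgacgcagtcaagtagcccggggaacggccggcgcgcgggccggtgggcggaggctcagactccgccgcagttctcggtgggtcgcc

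Hspa5, the central HSP70 chaperone of the ER, did not share the day 7 direction. It read 12.62 (day 3) and 12.74 (day 7) on the control arrays, and 12.88 and 12.78 on the citalopram arrays, so it was higher by 0.26 and 0.04. Hsp90b1, the ER form of HSP90, was at 0.07 and -0.18, Hyou1, the nucleotide exchange factor of BiP, at 0.06 and -0.22, and Manf, a stress-induced protein that binds BiP, at 0.07 and -0.20. Thus 5 of these 6 lumenal genes were lower with citalopram at day 7, against 48.7% of all genes. The median over the 6 was -0.21, and Hspa5 was the exception. Hspa5 and Hsp90b1 both carry the element. The Hsp90b1 window, chr10:86705395-86705694 on the minus strand, holds it on each strand.
Hsp90b1 promoter: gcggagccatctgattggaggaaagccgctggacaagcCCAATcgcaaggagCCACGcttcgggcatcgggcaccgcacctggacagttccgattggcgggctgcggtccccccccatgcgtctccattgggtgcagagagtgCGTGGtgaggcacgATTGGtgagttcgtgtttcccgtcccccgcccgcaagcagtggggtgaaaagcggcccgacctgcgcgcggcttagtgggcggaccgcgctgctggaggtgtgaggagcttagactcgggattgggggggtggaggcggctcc

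The J-domain co-chaperones, which hand unfolded clients to BiP, differed little. Dnajb9 was higher by 0.07 at day 3 and 0.06 at day 7, Dnajb11 was at 0.04 and -0.05, and Dnajc10, which also reduces disulfides, at 0.11 and -0.03. Dnajc3 was at 0.06 and -0.17, and its 2 features carried identical values on each array. In the lectin cycle, which retains glycoproteins until they fold, all 3 genes were lower at day 7, as were 48.7% of all genes. Calr, calreticulin, read 12.90 (day 3) and 13.16 (day 7) on the control arrays, and 13.04 and 12.89 on the citalopram arrays. The day 7 difference (-0.27, 1.21-fold) followed a control value that was the highest of the 4 arrays, while citalopram at day 7 was within 0.01 of control at day 3. Canx, calnexin, was at 0.17 and -0.09, and Uggt1, the glucosyltransferase that recognises misfolded glycoproteins, at -0.02 and -0.22. The Calr window is chr8:84846882-84847181 on the minus strand.
Calr promoter: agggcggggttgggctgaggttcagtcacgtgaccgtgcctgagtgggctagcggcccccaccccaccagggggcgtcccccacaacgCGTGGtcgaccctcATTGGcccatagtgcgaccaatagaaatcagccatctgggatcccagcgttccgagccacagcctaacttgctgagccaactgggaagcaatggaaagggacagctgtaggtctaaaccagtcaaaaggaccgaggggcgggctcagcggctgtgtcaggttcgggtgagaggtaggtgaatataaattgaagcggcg

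Of the disulfide isomerases, Pdia4 differed most between the days. It read 12.27 (day 3) and 12.45 (day 7) on the control arrays, and 12.45 and 11.97 on the citalopram arrays. Only the citalopram array of day 7 lay below control at day 3, 1.39-fold under its own control (-0.47), after 0.18 at day 3. A second, dim feature of Pdia4, at 5.95 to 6.21, gave 0.21 and -0.09. Pdia6 read 11.14 (day 3) and 11.54 (day 7) on the control arrays, and 11.22 and 11.19 on the citalopram arrays. Here the control at day 7 stood above the other 3 arrays, which spanned 11.14 to 11.22, so the day 7 difference (-0.34, 1.27-fold lower) and the control difference over time (0.39) share that array. Pdia3, the isomerase that works with calnexin and calreticulin, was at -0.07 and -0.19. Erp29 (-0.04 and -0.01) and Erp44, which retains its clients through thiol bonds (-0.11 and 0.07), did not follow the others. The Pdia6 window, chr12:17266339-17266638 on the plus strand, has the element on the gene's strand.
Pdia6 promoter: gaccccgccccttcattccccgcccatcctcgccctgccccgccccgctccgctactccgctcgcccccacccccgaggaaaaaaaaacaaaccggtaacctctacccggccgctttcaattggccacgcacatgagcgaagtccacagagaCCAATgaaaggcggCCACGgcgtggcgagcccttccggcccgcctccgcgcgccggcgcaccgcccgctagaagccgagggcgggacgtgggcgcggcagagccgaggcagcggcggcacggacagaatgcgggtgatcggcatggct

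Genes of ER-associated degradation were mixed, with 5 of 7 higher at day 3 (57.7% of all genes) and 5 of 7 lower at day 7 (48.7%). Herpud1, a scaffold of the degradation complex, was higher with citalopram on both days, by 0.26 and 0.12, and Syvn1, its ubiquitin ligase, was higher at day 3 (0.24) and at -0.02 at day 7. Edem1, which delivers misfolded glycoproteins, was at 0.08 and -0.22, and Sel1l, the partner of Syvn1, at 0.01 and -0.18. The derlins, membrane proteins of the export channel, stayed within 0.12 of control on both days. Edem1 and Sel1l were lower at day 7 while Herpud1, Syvn1 and the derlins ranged from -0.10 to 0.12.

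All 3 translocon genes were higher at day 3, as were 57.7% of all genes. Sec61b, a channel subunit, read 10.40 (day 3) and 10.17 (day 7) on the control arrays, and 10.69 and 10.25 on the citalopram arrays. The citalopram array was 1.22-fold higher at day 3 (0.29) and 0.08 higher at day 7, and both day 7 values lay below both day 3 values. Its 3 features gave 0.14 to 0.29 at day 3 and -0.00 to 0.08 at day 7, so the size for this gene depends on the feature. Sec61a1, the pore subunit, was at 0.14 and -0.12, and Ssr1, of the translocon-associated complex, at 0.20 and -0.16. In the COPII coat, Sec23b, an inner coat subunit, read 11.07 in control and 11.15 with citalopram on day 3. On day 7 its control was -0.07 from that of day 3 and citalopram was at 10.70, 1.22-fold under control (-0.29) and the lowest of the 4 arrays. Sec24d, the cargo adaptor, was higher by 0.26 and 0.09.

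**Figure D3:**
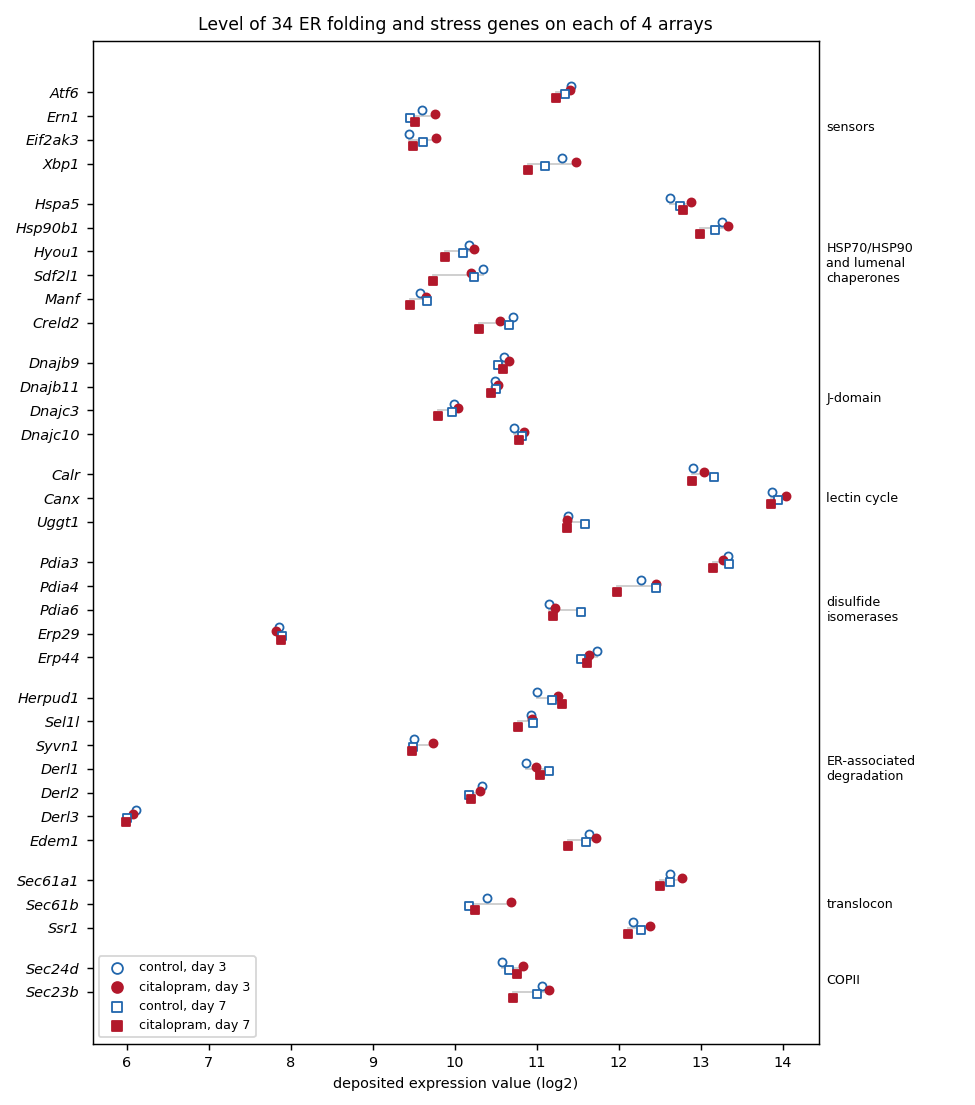
Deposited log2 value of each gene on the 4 arrays, circles for day 3, squares for day 7, open for control and filled for citalopram, with a line over each gene's range. Filled squares (citalopram, day 7) lie at the left end for 20 of 34 genes, and Pdia6 shows an open square (control, day 7) apart from the other 3 arrays.

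In the untreated cells, day 7 against day 3 gave 17 of the 34 genes higher and 17 lower (median 0.00; 47.2% of 12201 genes higher and 52.8% lower). After each array was centred on its median over all features 26 of the 34 were lower, with 72.8% of all genes. On the deposited values, Pdia6 (0.39) and Derl1 (0.28) were at least 1.2-fold higher at day 7, against 9.18% of all genes, and 0 genes were 1.2-fold lower (11.6% of all genes). With citalopram, 30 of 34 were lower at day 7 than at day 3 (median -0.18), against 55.9% of 12210 genes (median -0.04) and 58.7% of those with a mean of at least 9. At least 1.2-fold lower were 11 of 34 (18.2% of all genes), and Xbp1 passed 1.5-fold (-0.59; 2.8% of all genes). With centred arrays all 34 were lower (78.8% of all genes), 21 by at least 1.2-fold (37.9%). After Xbp1 came Pdia4 (-0.48), Sdf2l1 (-0.46), Sec23b (-0.45) and Sec61b (-0.44). These comparisons share arrays with the citalopram comparisons above and are not independent of them. For day over both treatments, limma called 0 of 34 genes, against 1.31% of 12415 genes higher and 1.49% lower, with Xbp1 nearest (-0.21 in control and -0.59 with citalopram; limma, adjusted p = 0.123). At an unadjusted p under 0.05 limma listed 3 of the 34, Xbp1, Sec61b and Sdf2l1, all lower at day 7, against 20.1% of all genes. With centred arrays limma called 5 of 34 for day, all lower, where 18.5% of all genes were called.

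Genes with and without a match were also set side by side. The 11 genes with ERSE or ERSE-II had medians of 0.08 at day 3 and -0.09 at day 7. Respectively 9 were higher and 9 lower, against 57.7% and 48.7% of all genes. The 17 with a window and no match had medians of 0.09 and -0.16, with 12 higher and 11 lower, against the same shares. Sdf2l1, Pdia4 and Sec23b, among the lowest at day 7, are in the second group. The difference between these groups was not tested.

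Other genes of the secretory pathway were listed by function. Among further ER chaperones and prolyl isomerases above the floor, 21 of 27 were higher at day 3 (median 0.08), against 57.7% of all genes. At day 7, 19 of 27 were lower (-0.14), against 48.7% of all genes. Sdf4, a calcium-binding lumenal protein, was at -0.25 and -0.42 and Cnpy4 at 0.11 and -0.37. Sdf2, the paralogue of Sdf2l1, was higher on both days (0.10 and 0.18), as was Dnajc1 (0.08 and 0.24). Of the further disulfide isomerases and redox genes 8 were higher and 8 lower at day 3 (median 0.01), against 57.7% and 42.3% of all genes. At day 7, 13 of 16 were lower (-0.14), against 48.7% of all genes. Pdia5 was at 0.07 and -0.54, the peroxiredoxin gene Prdx4 at -0.33 and -0.36, and the oxidase gene Ero1a at 0.04 and 0.07, with Gpx8 at 0.07 and 0.04.

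For the COPII coat, ER exit and retrieval, 22 of 26 were higher at day 3 (0.09), against 57.7% of all genes. At day 7, 17 of 26 were lower (-0.09), against 48.7% of all genes, a share that also applies to the lists that follow. The cargo receptor gene Surf4 was at 0.16 and -0.35 and the lectin gene Lman2 at -0.02 and -0.27. Sec24b was higher on both days (0.27 and 0.26), and Sec16a was at -0.01 and 0.18. The translocon, signal peptidase and signal recognition list had 11 genes higher and 9 lower at day 3 (median 0.02). At day 7 this list was lower in 13 of 20 (-0.07). Within it Srpr, the signal recognition receptor gene, was at -0.05 and -0.36, Ssr4 at 0.09 and -0.31, Sec63 at 0.02 and 0.14 and Srp14 at -0.37 and 0.13. In the oligosaccharyltransferase list 7 of 17 were higher and 10 lower at day 3 (median -0.01), and 11 were lower at day 7 (-0.10). Ddost was at -0.09 and -0.36, Tusc3 at 0.14 and -0.36, Krtcap2 at -0.01 and 0.23 and Uggt2 at 0.04 and 0.23. For citalopram, limma called 0 genes in each of these lists.

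The regulators related to the sensors were higher in 11 of 12 at day 3 (median 0.11, against 57.7% of all genes higher). At day 7 they were lower in 7 of 12 (median -0.02, against 48.7% of all genes lower). Atf6b, the relative of Atf6, was the exception at day 3 (-0.08) and was -0.24 at day 7. Creb3l1, the OASIS factor that drives collagen secretion genes in osteoblasts, was higher by 0.07 and 0.19, and Mbtps1, the site 1 protease that cuts ATF6, was at 0.08 and -0.18. Ppp1r15b, a phosphatase subunit that reverses the PERK signal, was at 0.01 and 0.22, the highest of the list at day 7. Casp12, a caspase of the ER, was at 0.33 and -0.11, and Wfs1, a membrane protein that restrains ATF6, at 0.01 and -0.34. In the ATF4 and CHOP arm at day 7, 15 of 24 were higher (median 0.11), against 51.3% of all genes. Of the 24, 4 passed 1.5-fold upward (0.558% of all genes). At day 3 the list had 11 higher and 13 lower (57.7% and 42.3% of all genes). Nupr1, a stress-induced chromatin protein, was at -0.16 and 0.74, Atf3 at 0.29 and 0.71, Shmt2 at -0.13 and -0.20 and Phgdh at -0.11 and -0.22. Ddit3, the gene of CHOP, named after its value was seen, was at 0.08 and 0.40. limma called 0 genes of either list for citalopram.

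**Figure D4:**
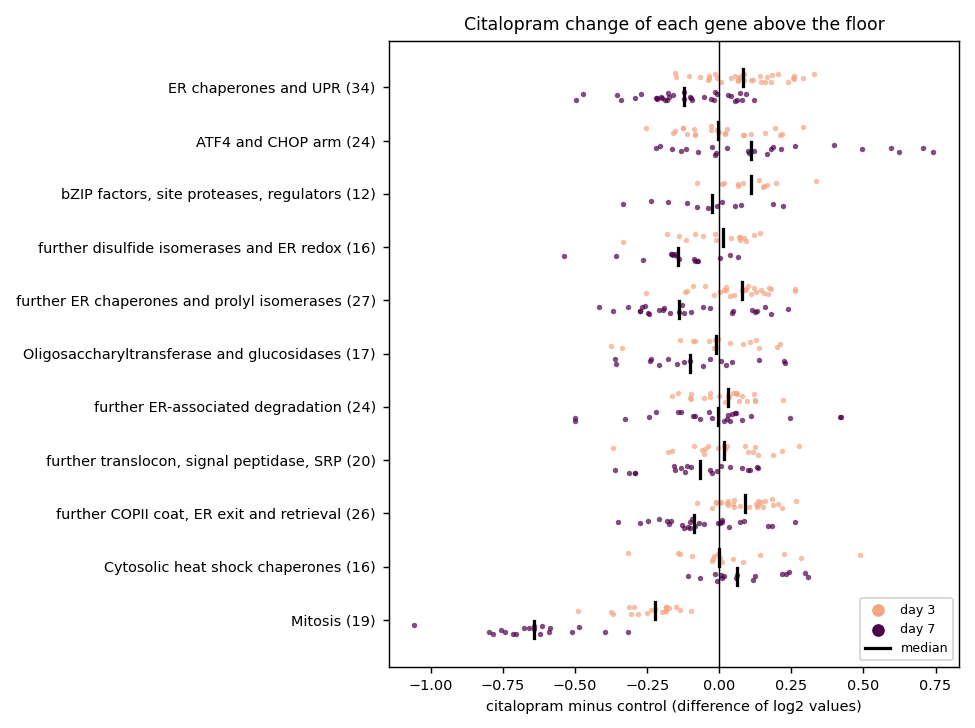
Citalopram minus control (difference of log2 values) for each gene above the floor at day 3 (light) and day 7 (dark), by list, with black bars at the medians and the number of genes in brackets. The ER chaperone and UPR set has medians of 0.08 and -0.12, the ATF4 and CHOP arm -0.00 and 0.11, and mitosis genes -0.22 and -0.64.

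The list of cytosolic heat shock chaperones, which serve proteins outside the ER, also held the mitochondrial chaperone genes Hspd1, Hspe1 and Hspa9. Of its 16 genes 8 were higher and 8 lower at day 3, against 57.7% and 42.3% of all genes. At day 7, 12 of 16 were higher (median 0.06), against 51.3% of all genes. Those mitochondrial genes were among the 12 (0.02, 0.22 and 0.23). The share among the cytosolic genes alone was not counted. Bag3 was at 0.28 and 0.31, Chordc1 at -0.32 and 0.30, Hsp90aa1 at 0.00 and -0.07 and Stip1 at -0.14 and -0.11. All 19 mitosis genes were lower on both days (medians -0.22 and -0.64), against 22.2% of all genes. Cenpa was at -0.22 and -1.06, Bub1 at -0.38 and -0.80, Mki67 at -0.13 and -0.40 and Tpx2 at -0.31 and -0.32. Their part in the ER result was not tested.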

How the data were processed

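Whole-culture RNA from 4 groups was measured on 1 Affymetrix array each. The authors deposited log2 expression values, used here unchanged; base 2 was inferred from the range. Per the submitters' processing notes Partek was used. The sources used here do not give the normalization. Genes were named from features with 1 symbol (21789 of 35556) in the platform annotation. The members and lists were chosen with earlier results of these data known. Differences were counted at 1.2-fold and 1.5-fold. limma 3.58.1 (R 4.3.3; lmFit, eBayes, two-sided, Benjamini-Hochberg over 12415 genes, threshold 0.05) had 1 residual degree of freedom and was tested on simulated data. Other steps used Python 3.11.15 and pandas 2.3.3. Nothing says that arrays came from separate cultures, so p-values measure only the spread between these arrays. Values on every array are given for members past 1.2-fold at either day (Xbp1 and Hspa5 were added after their values were seen); from further lists the 2 highest and 2 lowest genes at day 7 are named; of the regulators related to the sensors any could be, and those beyond the 4 were chosen after their values were seen. Promoters of the 4 ERSE genes with the largest day 7 change are printed, from RefSeq; protein sequences were not used here. Alternatives were 3 scalings, the choice of feature, the floor, an eBayes trend and single-term fits.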

Additional observations from a re-analysis of the deposited data

Results flagged for a closer look

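In 21 of 34 genes the citalopram change had opposite signs on the 2 days, as in 47% of all 12415 genes. The difference was at least 1.3-fold in 5 of them (10.5% of all genes), a limit set after the values were seen. For these 5 the change at day 7 minus that at day 3, in log2 units, was -0.65 for Pdia4, -0.45 for Eif2ak3, -0.42 for Pdia6, -0.41 for Calr and -0.38 for Xbp1. It was -0.38 for Sec23b, just under that limit, -0.37 for Ssr1, -0.30 for Edem1, -0.28 for Hyou1, and -0.27 for Manf and for Sec61a1. Smaller values were -0.26 for Canx and for Syvn1, -0.24 for Hsp90b1, -0.23 for Dnajc3, -0.22 for Derl1, -0.19 for Sel1l, -0.14 for Dnajc10 and -0.0945 for Dnajb11. In Derl2 (0.0664) and Erp44 (0.18) it went the other way. Each rests on 1 array per group, and the difference between the days was not tested.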

How the results depend on the processing

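The count of genes lower with citalopram stayed between 9 and 11 of 34 at day 3 and between 25 and 29 at day 7 over quantile normalization, cyclic loess, median centring, the mean over features and, an alternative chosen after seeing the data, differences relative to genes with a mean of at least 9. As deposited and under the 3 scalings, 42.3% to 48.4% of all genes were lower at day 3 and 48.7% to 60.4% at day 7. Restriction to features with 1 symbol or to members above the floor leaves the same 34 values and tests nothing here. The medians ranged from 0.03 to 0.08 at day 3 and from -0.18 to -0.12 at day 7. The 1.2-fold higher count at day 3 was 1 with the mean over features and 1 relative to bright genes, against 2. The 1.2-fold lower count at day 7 ran from 5 to 9 (6 as deposited), with 9 after median centring. Among all genes that share was 9.07% as deposited and 9.54% to 13.6% under the 3 scalings, highest after median centring. For the citalopram change at day 7 minus that at day 3, the 1.2-fold lower count ran from 8 to 17 (12 as deposited). It was 17 after median centring. Of all genes 15.7% were 1.2-fold lower as deposited and 13.9% to 20.7% under the 3 scalings, again highest after median centring. Median centring shifted all genes by -0.11 for day in control and by -0.15 for day with citalopram. Under it 26 of 34 were lower at day 7 in control (72.8% of all genes), 4 were 1.2-fold lower (23.2%) and 1 higher (4.3%), and with citalopram 21 were 1.2-fold lower (37.9%). For day, limma then called 5 members (18.5% of all genes), and under quantile normalization 1 (Xbp1, limma, adjusted p = 0.0396), where 12.4% of all genes were called, against 0; limma's smallest adjusted p for Xbp1 over the settings ran from 0.00419 to 0.179. For treatment limma called 0 members in every setting run, while it called 139 of all genes after quantile normalization, 103 after median centring and 40 after cyclic loess, against 0. No array could be left out of the additive fit, which has 1 residual degree of freedom. No paired analysis was possible because the labels give no replicate numbers. The treatment term of the additive fit, with day also in the model, does set citalopram against control within each day. Signal over background is not given by the files, so what it limits is unknown apart from Derl3, which lay near the floor.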

Other observations

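Outside the 34 genes, 38 others had an ERSE or ERSE-II match in a RefSeq window, of which 19 were on the array and 13 of those above the floor. Of these 6 were higher with citalopram at day 3 (57.7% of all genes) and 6 were lower at day 7 (48.7%), with medians of -0.01 and 0.00. Chosen after their values were seen, Nucb1, a calcium-binding protein gene, was at -0.11 and -0.32 and Alg12, a mannosyltransferase gene of the N-glycan pathway, at 0.18 and -0.29, the lowest pair at day 7.

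Further genes of ER-associated degradation were split at day 7, with 12 of 24 higher and 12 lower (51.3% and 48.7% of all genes). The selenoprotein genes Selenok (-0.10 and 0.42) and Selenos (-0.10 and 0.42), both of the degradation complex, were the highest, whereas Ubxn8 (0.06 and -0.50) and the ubiquitin ligase gene Rnf5 (-0.16 and -0.50) were the lowest. Selenos read 9.74 (day 3) and 9.43 (day 7) on the control arrays, and 9.64 and 9.85 on the citalopram arrays, so its control at day 7 was the lowest of the 4 arrays.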
